A study of Mus musculus with 20 samples.

Results

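Hmgcs1, Idi1, Fdft1, Sqle, Lss, Cyp51 and Insig1 were 7 of the 24062 genes in the expression table, and they were taken from it by symbol, not by their measured values. Of these, 6 encode enzymes of cholesterol synthesis, and Insig1 encodes a membrane protein that holds that synthesis in check. None of the 7 takes up cholesterol from outside the cell. RNA was measured in microglia, the resident immune cells of the brain, from male mice that carry human α-synuclein under the Thy-1 promoter (mThy1-Asyn in the labels, mThy1-α-syn here) and from wild-type (WT) littermates, all with the strain label B6D2F1/J. The question was how expression differed between the genotypes at 7 months (6 mThy1-α-syn and 4 WT mice) and at 10 months (5 and 5). One whole brain, from 1 mouse, gave 1 sample. The transgene lies on the X chromosome, and the Thy-1 promoter is known for driving expression in neurons, not in the microglia that were selected. The sample labels name IBA1 beads for the selection of the cells, whereas the study's methods name CD11b beads. Mice of both genotypes were processed together within an age, and the values of each age were normalized on their own, so that age cannot be told apart from processing.

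Cells make cholesterol from acetyl-CoA through mevalonate, squalene and lanosterol in a long series of enzymatic steps. The genes of these enzymes are switched on together by the transcription factor SREBP2, which its escort protein SCAP carries from the endoplasmic reticulum to the Golgi when sterols are scarce. When sterols are plentiful, INSIG proteins hold SCAP and SREBP2 back. In the adult brain cholesterol is made locally, because little crosses the blood-brain barrier, and microglia also take up and export lipids from myelin and dying cells.

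Values are normalized counts, that is, reads counted on a gene divided by a factor for the depth of each mouse. Between 33404096 and 77806399 reads per mouse were counted on genes. Thy1, the gene whose promoter the transgene uses, had 392.5 to 1298 normalized counts in mThy1-α-syn and 17.7 to 47.6 in WT mice at 7 months, and 1117 to 1741 against 9.41 to 32.4 at 10 months, with no overlap. The 8 microglia markers, among them Cx3cr1 and P2ry12, summed to between 1579370 and 2094760 normalized counts in every mouse. Markers of other cells had lower sums, of which those of the 4 neutrophil markers were the highest, 36847 to 374518. These sums are over lists of unlike length, and single neutrophil markers were not below every microglia marker. In WT mice at 10 months the median of S100a9 was 111897 normalized counts, below Cx3cr1 (251797) and above Tmem119 (68271). The 2 red cell markers were listed at 0 in all mice. In bulk RNA such as this, fewer cells of a type and less RNA per cell cannot be told apart.

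The promoters of 3 of the genes are printed here because the genes are known SREBP targets and the letters show how their start regions differ. RefSeq promoters on the GRCm38.p6 build were found for 5 of the 7 genes (Hmgcs1, Idi1, Lss, Cyp51 and Insig1), and the 250 bases before each start were searched on both strands. The letters TCACNCCA, a core of the sterol regulatory element bound by SREBP, were present in 1 of these 5, Hmgcs1, where they began 137 bases upstream of the start. They were present in 3.58% of all 27018 promoters of this length. The letters CCAAT, a box bound by NF-Y, and GGGCGG, a GC box bound by Sp1, were each present in 5 of 5, against 34.5% and 32.9% of all promoters. Capitals mark the sterol regulatory element core and the CCAAT boxes in either strand (ATTGG on the strand shown), and GC boxes are not marked. The regions are chr13:119690101-119690350 for Hmgcs1, chr10:76531355-76531587 for Lss and chr5:28071162-28071362 for Insig1, all on the plus strand and 5′ to 3′, ending before the annotated first exon.
Hmgcs1: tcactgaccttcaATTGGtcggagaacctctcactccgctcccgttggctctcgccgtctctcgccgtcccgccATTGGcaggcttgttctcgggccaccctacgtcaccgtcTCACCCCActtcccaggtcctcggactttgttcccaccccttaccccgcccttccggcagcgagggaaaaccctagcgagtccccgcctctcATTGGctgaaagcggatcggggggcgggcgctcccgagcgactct
Lss: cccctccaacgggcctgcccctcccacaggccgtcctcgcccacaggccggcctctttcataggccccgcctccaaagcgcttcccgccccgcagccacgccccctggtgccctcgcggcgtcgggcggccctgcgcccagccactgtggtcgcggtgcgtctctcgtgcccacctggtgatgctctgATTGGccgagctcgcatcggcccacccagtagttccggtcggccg
Insig1: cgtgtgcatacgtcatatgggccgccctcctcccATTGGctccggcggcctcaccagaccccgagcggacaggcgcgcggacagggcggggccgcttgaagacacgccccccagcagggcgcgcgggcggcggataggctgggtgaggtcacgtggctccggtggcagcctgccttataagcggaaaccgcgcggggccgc
A match of letters is a description, and a promoter without the core says only that these letters were not in the window searched.

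Hmgcs1 (chr13:119690379-119708260, plus strand) encodes HMG-CoA synthase, which joins acetyl units at the start of the mevalonate pathway. At 7 months the 4 WT mice had 3769, 3448, 3179 and 3375 normalized counts, and the 6 mThy1-α-syn mice ranged from 3203 over a median of 3566 to 3905. At 10 months the WT mice had 3193, 2968, 2936, 2876 and 2552 normalized counts, and the mThy1-α-syn mice 3347, 3394, 3161, 2515 and 2726. The genotypes overlapped widely at both ages. The log2 fold change of mThy1-α-syn over WT was 0.041 at 7 months (95% interval -0.12 to 0.20, limma, Benjamini-Hochberg adjusted p = 0.796) and 0.054 at 10 months (-0.14 to 0.25, adjusted p = 0.771). The intervals held no fold beyond 1.15 at 7 months and 1.19 at 10 months in either direction.

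Idi1 (chr13:8885501-8892451, plus strand) encodes the isomerase that turns isopentenyl diphosphate into its reactive partner, the building block of longer chains. Among the mice of 7 months, WT had 1750.0, 1258, 1071 and 1059 normalized counts, and the mThy1-α-syn mice ranged from 740.5 over a median of 949 to 1131. All 6 mThy1-α-syn mice were below the WT median and 4 were below every WT mouse. The mean was 939 ± 162 (SD, n = 6) against 1285 ± 323 (n = 4), a log2 fold change of -0.44 ± 0.16 (SE, 95% interval -0.77 to -0.10). This did not pass the limma test after Benjamini-Hochberg adjustment (unadjusted p = 0.0139, adjusted p = 0.122). The WT spread rested largely on 1 mouse, and without WT replicate 1 the log2 fold change was -0.28 (adjusted p = 0.345). The WT mice of 10 months had 1067, 981, 1110.1, 1121 and 1236 normalized counts, and the mThy1-α-syn mice 1022, 1183, 985, 750.1 and 797. Of the mThy1-α-syn mice 2 were below every WT mouse, and the log2 fold change was -0.24 (-0.49 to 0.016, limma adjusted p = 0.245).

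Fdft1 (chr14:63145150-63179578, minus strand) encodes squalene synthase, which commits the pathway to sterols. The WT mice of 7 months had 658, 549, 495 and 596 normalized counts, and the mThy1-α-syn mice ranged from 500.2 over a median of 563 to 715. The means, 575 ± 73.5 (SD, n = 6) and 574 ± 69.3 (n = 4), were nearly equal, with a 95% interval of the log2 fold change of -0.26 to 0.26. At 10 months the WT mice had 624.8, 597, 539, 632 and 649 normalized counts, and the mThy1-α-syn mice 525.8, 581, 434, 575 and 505. Here 3 of 5 mThy1-α-syn mice were below every WT mouse, and the log2 fold change of -0.22 (-0.44 to 0.00032) did not pass the limma test (adjusted p = 0.213). Of the annotated exon bases of Fdft1, 18.3% also lie in exons of Ctsb on the other strand, a gene with a mean of about 175081 normalized counts at 7 months and 173999 at 10 months. Whether the counting used strand is not given in the sources used here, and reads shared between the genes could not be told apart, so Fdft1 values are uncertain.

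Sqle (chr15:59315077-59331192, plus strand) encodes squalene epoxidase, a slow step of the pathway that adds oxygen to squalene. In the younger WT mice there were 697, 687, 709 and 606 normalized counts, and their mThy1-α-syn littermates ranged from 481 over a median of 596 to 666. All 6 mThy1-α-syn mice were below the WT median and 3 were below every WT mouse. The order of the genotypes was different at 10 months. WT mice had 515, 429, 574, 581 and 474 normalized counts, the mThy1-α-syn mice 643, 611, 570.4, 494 and 551, and 4 of 5 mThy1-α-syn mice were above the WT median. The log2 fold changes were -0.21 (-0.47 to 0.039) and 0.16 (-0.077 to 0.40), with limma adjusted p = 0.317 and 0.415.

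Lss (chr10:76531588-76557138, plus strand) encodes lanosterol synthase, which closes the squalene chain into the sterol ring. At 7 months the WT mice had 281, 342, 312 and 348 normalized counts, and the mThy1-α-syn mice ranged from 189 over a median of 244 to 319.9. Of the 6 mThy1-α-syn mice 5 were below every WT mouse, by a narrow margin in 1 of them (280.1 against 281). At 10 months the WT mice had 239, 203, 204, 211 and 239 normalized counts, and the mThy1-α-syn mice had 264, 314, 261, 228 and 354. Now 4 of 5 mThy1-α-syn mice were above every WT mouse, so the genotypes stood in the opposite order at the later age. The means were 249 ± 47.4 (SD, n = 6) against 321 ± 30.7 (n = 4) at 7 months and 284 ± 49.8 (n = 5) against 219 ± 18.5 (n = 5) at 10 months. The log2 fold change was -0.38 ± 0.16 (SE) at 7 months and 0.36 ± 0.14 at 10 months, and neither passed the limma test after Benjamini-Hochberg adjustment (unadjusted p = 0.0324 and 0.0238, adjusted p = 0.188 and 0.141).

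Cyp51 (chr5:4081145-4104746, minus strand) encodes the cytochrome P450 that removes a methyl group from lanosterol. The 4 WT mice of 7 months had 1344, 1235, 1110.1 and 1144 normalized counts, and the mThy1-α-syn mice ranged from 1009 over a median of 1115 to 1368. The genotypes overlapped at that age. In the older WT mice there were 1106, 1026, 1049.8, 1051 and 1372 normalized counts, and the mThy1-α-syn mice 1332, 1411, 1259.5, 1169 and 1155. Every mThy1-α-syn mouse was above the 4 lower WT mice, and 1 of 5 was above the remaining WT mouse. The log2 fold changes were -0.085 (-0.30 to 0.13) and 0.18 (-0.022 to 0.38), with limma adjusted p = 0.665 and 0.271.

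Insig1 (chr5:28071363-28078662, plus strand) encodes the retention protein of SCAP and is itself an SREBP target. At 7 months the WT mice had 1545, 1306, 1442 and 1205 normalized counts, and the mThy1-α-syn mice ranged from 1087 over a median of 1231 to 1337. All 6 mThy1-α-syn mice were below the WT median. The older WT mice lay close together at 1225, 1237, 1175, 1218 and 1250.0 normalized counts, a coefficient of variation of 2.33% that was no larger than the 2.99% of counting error, while the mThy1-α-syn mice had 1170.0, 1048, 1051, 1257 and 1417 and lay on either side of them. The log2 fold changes were -0.18 (-0.38 to 0.023) and -0.048 (-0.24 to 0.14), with limma adjusted p = 0.294 and 0.788.

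**Figure D1:**
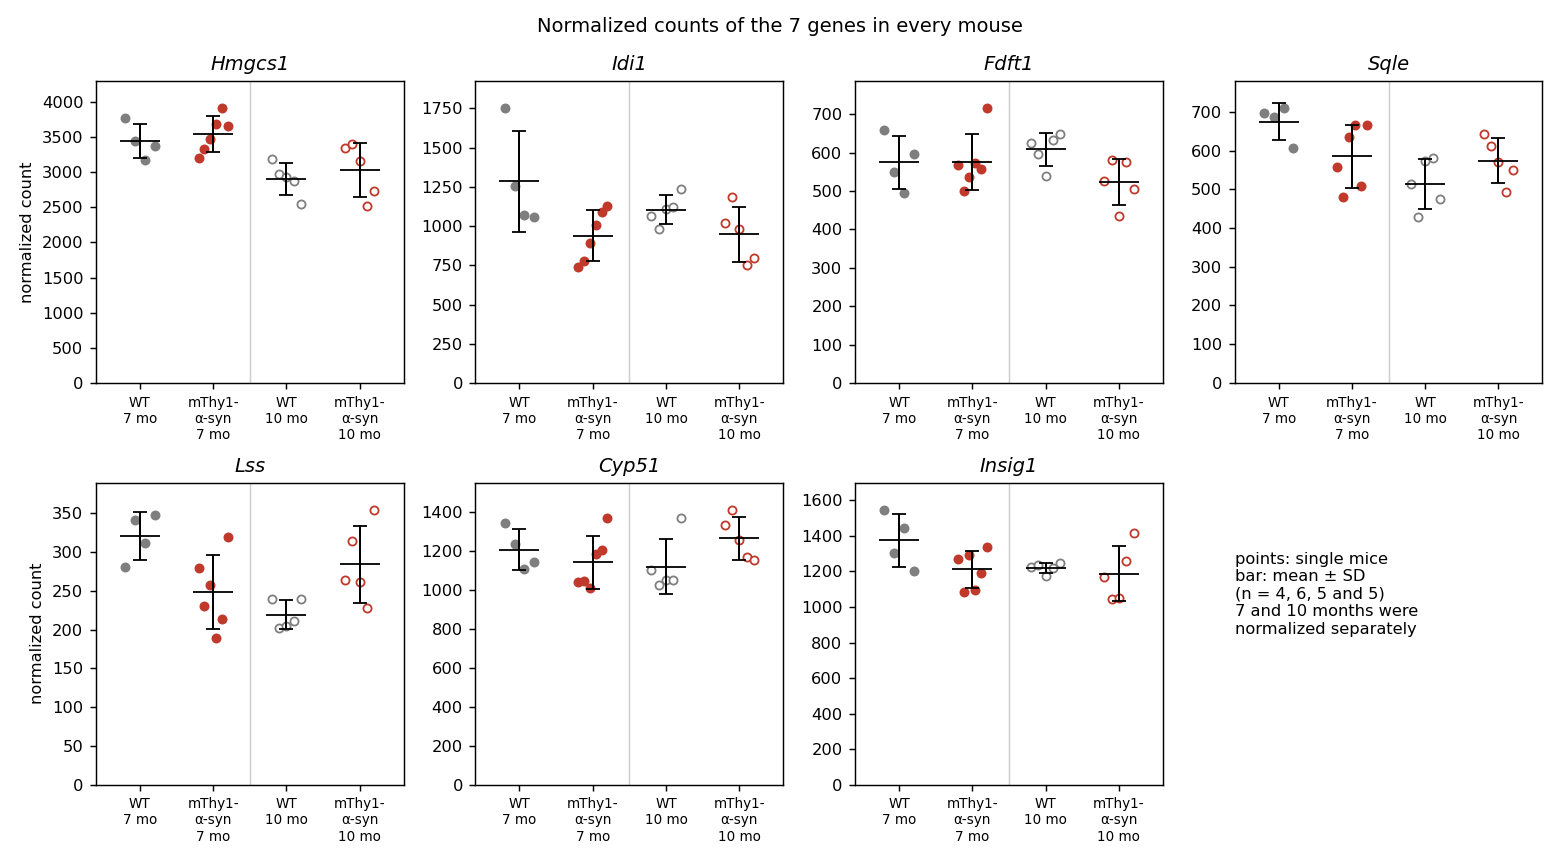
Normalized counts (linear axis from 0) of the 7 genes, in pathway order with Insig1 last, in WT (grey) and mThy1-α-syn mice (red) at 7 months (filled) and 10 months (open). Points are single mice and bars are the mean ± SD (n = 4, 6, 5 and 5), and in the Lss panel the red points lie mostly below the grey ones at 7 months and mostly above them at 10 months.

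The 7 genes were all measured well above the filter of 10 normalized counts, and all 7 were tested at both ages. Per kilobase of annotated exon, the level was highest for Hmgcs1 (mean of the group means 703 normalized counts per kb, single mice 548 to 850), followed by Insig1 (404), Idi1 (305), Cyp51 (268), Fdft1 (135), Sqle (106) and Lss (24.9, single mice 17.6 to 32.8). The ranges over single mice of Hmgcs1 and Insig1 did not overlap, nor did those of Cyp51 and Fdft1 or of Sqle and Lss. Neighbours whose ranges overlapped were Insig1 and Idi1, Idi1 and Cyp51, and Fdft1 and Sqle. These levels depend on the annotated exon length, which was 10787 bases for Lss against 5546 for Sqle. Without division by length, the group means were 219 to 321 normalized counts for Lss and 514 to 675 for Sqle. Lss was the least abundant of the genes, with 144 to 394 reads per mouse, so that counting error alone gave a coefficient of variation of 5.72% to 7.10% by group, below the 8.42% to 19.1% seen between mice of a group.

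At 7 months 0 of the 7 genes passed an adjusted p under 0.05 by limma, against 684 of 13887 genes tested (4.93% in all, 2.23% higher and 2.7% lower in mThy1-α-syn mice). At an unadjusted p under 0.05 there were 2 genes, Idi1 and Lss, both lower in mThy1-α-syn mice, against 21.3% of all genes. By direction, 5 of the 7 log2 fold changes were below 0, and their median was -0.18 against 0.00093 over all genes tested. No gene of the 7 separated the genotypes without overlap, which 7.53% of all genes did. For 5 of the 7 the 95% interval held no fold beyond 1.5 in either direction, a limit chosen after the values were seen, and the exceptions were Idi1 and Lss.

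At 10 months 0 of the 7 genes passed, against 1045 of 13627 genes tested (7.67% in all, 3.88% higher and 3.79% lower). Lss, higher in mThy1-α-syn mice, was the 1 gene with an unadjusted p under 0.05, against 23.5% of all genes. The signs were mixed, with 4 log2 fold changes above and 3 below 0 and a median of 0.054 against -0.0026 over all genes. No gene of the 7 separated the genotypes without overlap, against 7.27% of all genes. The interval stayed within 1.5-fold for 6 of the 7, with Lss the exception.

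Whether the effect of genotype differed between the ages was tested by subtracting the log2 fold change at 7 months from that at 10 months, with the 20 mice fitted together. Lss was the 1 of 7 genes that passed, with a higher effect at 10 months, against 920 of 14457 genes tested (6.36% in all, 3.74% with a higher and 2.62% with a lower effect at 10 months). Its difference was 0.74 ± 0.21 on the log2 scale (SE, 95% interval 0.31 to 1.18, limma adjusted p = 0.0343). Sqle had a difference of 0.37 (0.044 to 0.71, unadjusted p = 0.0281), which did not pass (adjusted p = 0.167). Together these were 2 of 7 at an unadjusted p under 0.05, against 21.9% of all genes. The difference was above 0 for 6 of the 7, with Fdft1 below (-0.22, adjusted p = 0.432), and the median was 0.20 against 0.0008 over all genes tested. For Hmgcs1 it was close to 0 (0.013, interval -0.23 to 0.26).

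**Figure D2:**
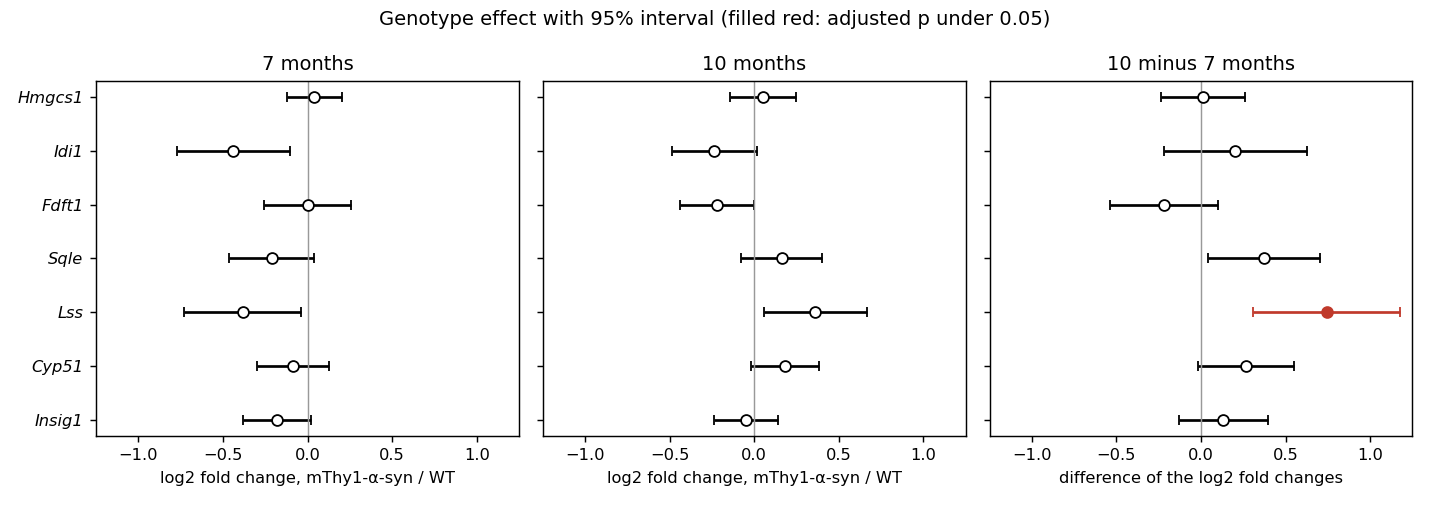
Log2 fold change of mThy1-α-syn over WT mice for the 7 genes at 7 months, at 10 months, and the difference between the ages (10 minus 7 months). Points are limma estimates and lines their 95% intervals, and the filled red point, Lss at 0.74 in the last panel, is the 1 value with an adjusted p under 0.05.

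The call of Lss was close to the threshold. It was lost in 9 of the 20 fits that left out 1 mouse each, where the difference lay between 0.66 and 0.82 and the adjusted p between 0.0194 and 0.0677 (highest without WT replicate 4 at 7 months). The mice whose absence ended the call were WT replicates 2, 3 and 4 and mThy1-α-syn replicates 2 and 5 at 7 months, and replicates 2 and 4 of WT and 2 and 5 of mThy1-α-syn at 10 months. After normalizing the mice of both ages together, the mean log2 level of Lss changed by -0.44 from 7 to 10 months in WT mice and by 0.30 in mThy1-α-syn mice. These changes with age carry no test, since age cannot be told apart from processing.

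Markers of other brain cells also differed between the groups, and their values stand here beside those of Lss. Over all genes tested, 2.23% passed as higher and 2.7% as lower at 7 months, and 3.88% and 3.79% at 10 months. In the difference between the ages 3.74% passed with a higher and 2.62% with a lower effect at 10 months. An unadjusted p under 0.05 was reached by 21.3%, 23.5% and 21.9% of all genes. The 6 neuron markers, with Snap25 and Syt1 among them, were all lower in mThy1-α-syn mice at 7 months (4 of 6 passing the limma test), and their sum was 207 to 408 normalized counts against 605 to 1195 in WT mice, without overlap. At 10 months the sums were 267 to 532 against 248 to 508, and the difference between the ages was above 0 for 6 of 6 (4 passing). The 6 oligodendrocyte markers, which include the myelin gene Mbp, were also all lower at 7 months (3 passing), with sums of 7845 to 10167 against 12702 to 18093. At 10 months their sums overlapped, 7584 to 10729 against 8759 to 15108, and 0 passed by limma in the difference between the ages (1 at an unadjusted p under 0.05), although 6 of 6 were above 0. Astrocyte markers were lower for 5 of 6 at 7 months (2 passing lower, 1 higher), while their sums, 9522 to 12287 against 8849 to 11462, overlapped. Most of each sum was Slc1a3, the 1 higher marker (8882 to 11711 against 7422 to 8860). Gja1 (35.4 to 134 against 165 to 339) and Aldoc (110 to 229 against 310 to 499) were lower without overlap. Aqp4, Gfap and Slc1a2 were lower with overlap. At 10 months 6 of 6 astrocyte markers were higher (0 passing by limma, 3 at an unadjusted p under 0.05), and the difference between the ages was above 0 for 5 of 6 (3 passing, median 1.5 on the log2 scale). Of 4 endothelial markers 2 passed as lower at 7 months, with sums of 2225 to 4068 against 4466 to 5295. All 4 were lower at both ages, with 0 passing at 10 months, where the sums were 3191 to 6505 against 3813 to 7326. At 10 months the 4 neutrophil markers were all lower in mThy1-α-syn mice, with sums of 60412 to 162191 against 130466 to 323107. Their median log2 fold change was -1.04 (0 passing by limma, 2 at an unadjusted p under 0.05). At 7 months all 4 were lower too (median -0.42, 0 passing), with sums of 36847 to 374518 against 62498 to 237782. At 10 months both monocyte markers were lower (0 passing by limma, 1 at an unadjusted p under 0.05). Of 8 microglia markers 7 were higher at that age (3 passing). At 7 months both monocyte markers were lower and 6 of 8 microglia markers were higher, with 0 passing. No marker of these types was at 0 in all mice. Their part in the values of Lss, and of Idi1 at 7 months, was not tested.

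Lss also shares 381 annotated exon bases (3.53% of its exons) with the antisense gene 4930483K19Rik. That gene had means of 21.7 and 23.6 normalized counts at 7 and 10 months, and its log2 fold changes were -0.30 and 1.45, with a difference of 1.75 that did not pass the limma test (adjusted p = 0.0744). The strand of counting is not given in the sources used here. Cyp51 shares 166 exon bases (3.76%) with Akap9 on the other strand, which had means of 3798 and 3379 normalized counts at 7 and 10 months. Hmgcs1 and Idi1 share 557 (12.1%) and 323 (9.22%) of their exon bases with transcripts without values here.

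Variation between mice of the same group was used to see which of the genes moved together. Log2 values were centred within each of the 4 groups and correlated over the 20 mice for all 21 pairs, with p-values from 100000 permutations adjusted over the pairs. Pearson's r ranged from -0.33 to 0.82 with a median of 0.25, and Spearman's rho from -0.35 to 0.86 with a median of 0.18. Pairs of other genes were not correlated in this way. Whether such values are particular to these genes or usual in these libraries was therefore not tested. The closest pair was Idi1 and Cyp51 (r = 0.82, permutation p = 1e-05, the smallest possible, adjusted p = 0.00021, rho = 0.86, permutation p = 5e-05, adjusted p = 0.00105). It held without the 2 mice farthest from the median of Idi1 (r = 0.81) and within each age (0.86 at 7 and 0.78 at 10 months). Hmgcs1 and Idi1 followed (r = 0.70, permutation p = 0.00213, adjusted p = 0.0224, rho = 0.71, permutation p = 0.00197, adjusted p = 0.0207). For this pair r was 0.81 without the 2 mice farthest from the median of Hmgcs1, and 0.92 and 0.59 within the ages. For Fdft1 and Cyp51 r was 0.60 (rho = 0.57), with an adjusted permutation p of 0.0539 that did not pass. No pair with Lss or Insig1 had an r above 0.32 over the 20 mice. For Insig1 the values within an age differed in sign, with r = 0.45 at 7 and -0.73 at 10 months with Idi1, and 0.13 and -0.66 with Hmgcs1, each over 10 mice and without a test of the difference. Hmgcs1 and Insig1 had the lowest r (-0.33, rho = -0.35, adjusted permutation p = 0.571).

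**Figure D3:**
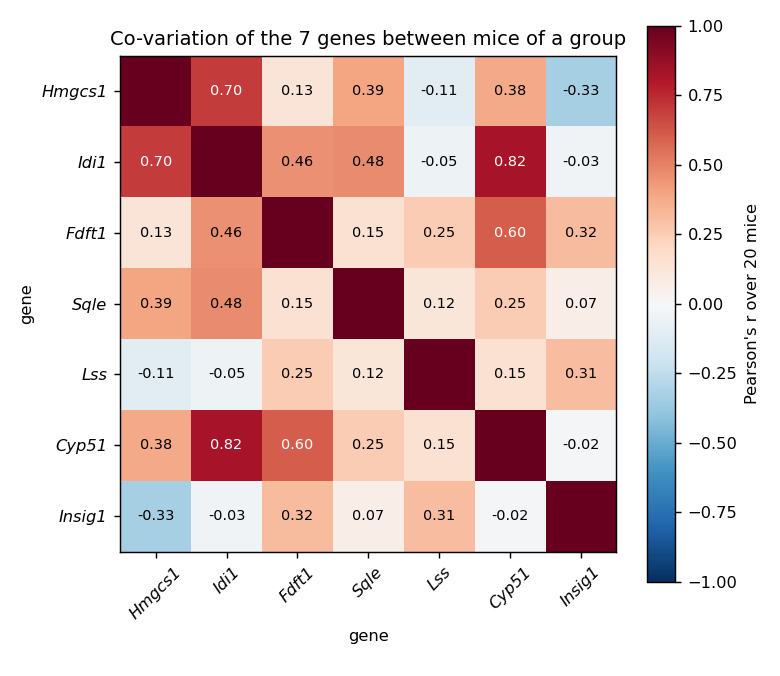
Pearson's r between each pair of the 7 genes over 20 mice, after centring log2 values within the 4 groups, with red for positive and blue for negative values and the diagonal at 1. The reddest cells are those of Idi1 with Cyp51 (0.82) and of Idi1 with Hmgcs1 (0.70), while Hmgcs1 with Cyp51 has 0.38. The cells of Lss and Insig1 are pale.

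The mean of the 7 centred genes was also compared with every other gene of 14450 ranked, as a description with no p. The 10 most alike were Dstn (r = 0.80), Eps15 (0.78), Lyrm5 (0.78), Plekha2 (0.77), Tsn (0.77), Gm2a (0.76), Gng5 (0.76), Nudt2 (0.75), 1810030O07Rik (0.75) and Nod2 (0.75), over 20 mice whose values for all genes come from the same libraries. None of these was in the sterol lists described next. The 15 other sterol synthesis enzymes had r from -0.18 to 0.57 with a median of 0.22, against 0.012 over all genes ranked. Nsdhl (0.57), Hsd17b7 (0.56) and Msmo1 (0.55), which act on the sterol ring after Cyp51, were the closest enzymes.

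The other genes of the pathway were described in 4 lists with 42 genes in all, each of which was tested. Among the 15 other synthesis enzymes, 0 passed by limma as higher and 1 as lower at 7 months, against 2.23% and 2.7% of all genes, and 4 had an unadjusted p under 0.05, against 21.3%. This was Pmvk, the kinase that acts on phosphomevalonate, with 220.0 to 354 normalized counts in mThy1-α-syn and 368 to 483 in WT mice (log2 fold change -0.54, limma adjusted p = 0.0479). At 10 months 5 of 15 had an unadjusted p under 0.05 (2 higher and 3 lower), against 23.5% of all genes. By limma 0 of 15 passed as higher, against 3.88% of all genes, and 2 of 15 passed as lower, against 3.79%. These were Lbr, a sterol reductase of the nuclear membrane (-0.51, adjusted p = 0.0388), and Ebp, the sterol isomerase (-0.27, adjusted p = 0.0414). Lbr had the highest mean normalized count of the list, without regard to exon length. The median log2 fold change of the list was -0.13 at 7 and 0.061 at 10 months, and that of its differences between the ages was 0.19, where Ebp passed as lower (-0.42, adjusted p = 0.0349), a call lost in 11 of the 20 fits without 1 mouse. As with Lss, these calls were close to the threshold, since Pmvk lost its call in 8, Lbr in 7 and Ebp in 9 of the 10 fits without 1 mouse of that age.

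Of the 9 genes that control SREBP, 1 passed as higher at each age, against 2.23% of all genes at 7 months and 3.88% at 10 months. Rnf139, a ubiquitin ligase, had a log2 fold change of 0.28 at 7 months (limma adjusted p = 0.0375), and Mbtps2, the protease that frees SREBP in the Golgi, had 0.29 at 10 months (adjusted p = 0.0419). Each lost its call without some mice, in 6 and 8 of 10 fits. Srebf2, which encodes SREBP2, had 1707 to 2628 normalized counts in mThy1-α-syn and 2331 to 2787 in WT mice at 7 months, with log2 fold changes of -0.27 (adjusted p = 0.144) and -0.11 (adjusted p = 0.510) at 7 and 10 months. Scap had 0.027 and 0.079 and Insig2, the paralog of Insig1, 0.13 and -0.0045, with no call. By limma 0 of the 9 passed in the difference between the ages, where 2 had an unadjusted p under 0.05, against 21.9% of all genes.

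Of the 11 uptake and transport genes, 0 passed by limma at 7 months, against 4.93% of all genes (4 had an unadjusted p under 0.05, against 21.3%), and 1 at 10 months, against 7.67%. Lrp1, a large receptor for lipoproteins and other ligands, had 47724 to 67053 normalized counts in mThy1-α-syn and 33359 to 45488 in WT mice at 10 months, a log2 fold change of 0.53 (limma adjusted p = 0.00713). Its difference between the ages was 0.65 (adjusted p = 0.0488). Lipa, the lysosomal lipase that frees cholesterol from its esters, had a difference of -0.44 (adjusted p = 0.0152). These were the 2 of 11 genes that passed in the difference, against 6.36% of all genes. Of the 7 genes of efflux, storage and oxysterols, 1 passed as higher at 7 months, against 2.23% of all genes. This was Soat1, which esterifies cholesterol for storage (0.50, adjusted p = 0.00679). At 10 months 2 of the 7 passed as higher, against 3.88% of all genes. These were the efflux transporters Abca1 (0.34, adjusted p = 0.0415) and Abcg1 (0.36, adjusted p = 0.00583). Their log2 fold changes at 7 months were 0.56 (unadjusted p = 0.00931, adjusted p = 0.1002) and 0.26 (adjusted p = 0.257), and the difference between the ages did not pass for either (adjusted p = 0.560 and 0.728). Soat1 had 7704 to 9258 normalized counts in mThy1-α-syn and 5373 to 7841 in WT mice at 7 months, against 6663 to 10455 and 8184 to 10476 at 10 months, and its difference between the ages was -0.80 (adjusted p = 0.0043). Lrp1 and Abcg1 at 10 months, Soat1 at 7 months and the differences of Lipa and Soat1 passed in every fit that left out 1 mouse. Abca1 lost its call in 7 of 10 such fits, and the difference of Lrp1 in 15 of 20.

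Over the 42 genes, 3 passed at 7 months, 6 at 10 months and 4 in the difference between the ages, against 4.93%, 7.67% and 6.36% of all genes. The genotypes did not overlap for 3 of 42 genes at 7 and 4 of 42 at 10 months, against 7.53% and 7.27% of all genes. The cell type markers at both ages, whose values are given above, come from the same mice as these calls. The part of the markers in these calls was not tested. Median log2 fold changes over these genes were 0.019, 0.030 and 0.049. The genotype effects of Lss and Soat1 differed between the ages by 0.74 and -0.80, and a link between the 2 genes was not tested. Without 1 mouse the call of Lss was lost in 9 of 20 fits and that of Soat1 in 0. The comparisons at the 2 ages share no mice.

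**Figure D4:**
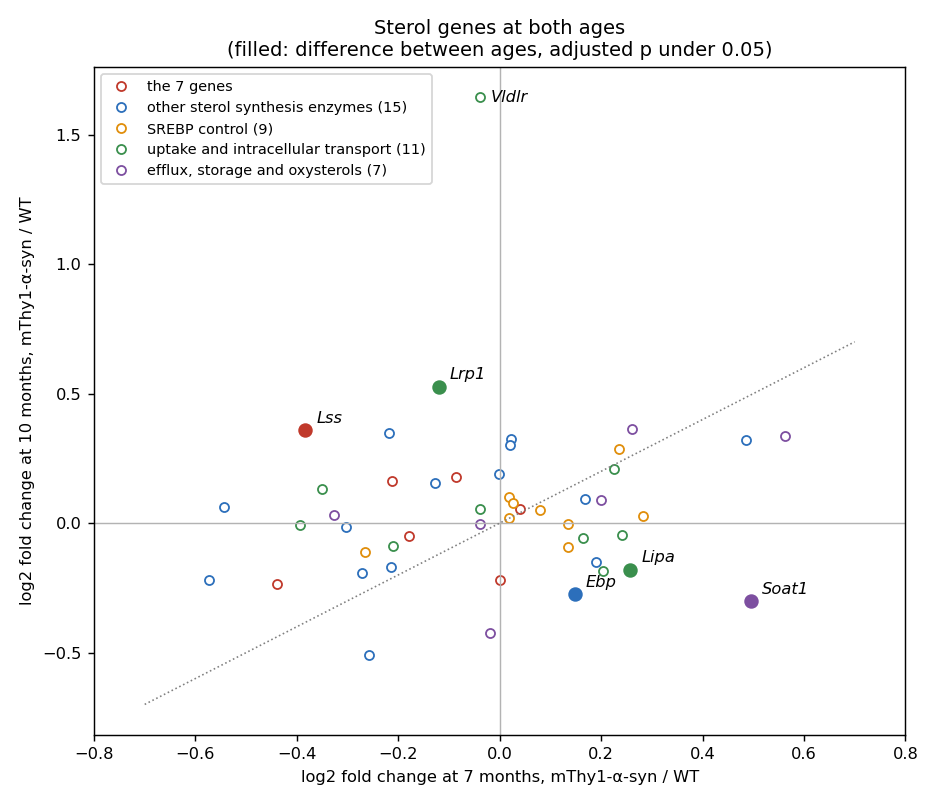
Log2 fold change of mThy1-α-syn over WT mice at 10 months against that at 7 months, for the 7 genes and the 42 genes of the sterol lists, with a dotted line where both are equal. Filled points passed the test of the difference between the ages, where Lss and Lrp1 lie above the line and Ebp, Lipa and Soat1 below it, and Vldlr, labelled after its value was seen, had 2.24 to 85.7 normalized counts and did not pass.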

How the data were processed

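RNA from magnetically selected microglia of 20 male mice was sequenced by the authors, who trimmed reads with Trim Galore 0.6.7, mapped them to mm10 with HISAT2 2.2.1, counted them per gene with featureCounts and normalized with DESeq2 1.44.0 (versions from the submitters' processing notes). The deposited signal values are gene counts divided by the authors' size factor for each mouse. Values were whole multiples of a step in every mouse (100% of values, tolerance 0.1). The steps matched size factors computed within an age, so reads could be recovered. In mThy1-α-syn replicate 5 at 10 months the step was close to 1 (1.003). The 20 single files equalled the table, and 0 columns lacked a sample. Counts differed between any mice of one group by a chi-square per gene of 24.7 or more, so errors are spreads between mice.

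Genotypes were compared with limma 3.58.1 in R 4.3.3 on log2(value + 1), with trend and robust estimation and a Benjamini-Hochberg cutoff of 0.05 over all genes tested. A fold change on this scale understates that of low genes. Genes entered a fit when 4 mice (7 months, and the difference between ages) or 5 mice (10 months) reached a value of 10. Alternatives were pseudocounts of 0.5 and 5, no filter, TMM normalization, edgeR 4.0.16 and DESeq2 1.42.0 on the recovered reads, voom with sample weights, a replicate block, 1 fit of all mice and leaving out each mouse. Scripts were tested on simulated data. Positions and exons are from GENCODE for GRCm38, and figures and other steps used Python 3.11.15, pandas 2.3.3, numpy 2.4.6, scipy 1.17.1 and matplotlib 3.10.9.

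The genes, the lists and the tests were chosen with earlier results of these data known. Named genes were the 7 genes, Srebf2, Scap and Insig2, each list gene past the cutoff, the 10 genes most alike, and markers. The gene with the highest mean normalized count of each list was also to be named. Vldlr, Ctsb, Akap9, 4930483K19Rik, Nsdhl, Hsd17b7 and Msmo1 were named outside this rule after values or annotation were seen. Results for some genes of the pathway and of the lists, among them some that this rule would name, are not reported here, so the lists do not hold every gene of the pathway.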

Additional observations from a re-analysis of the deposited data

Results flagged for a closer look

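Of 28 tests for a mouse far from the others of its group (each of the 7 genes in each of the 4 groups), 2 were positive, and chance gives about 1 in 20 groups. Fdft1 had 715 normalized counts in mThy1-α-syn replicate 6 at 7 months, where the other 5 mice of the group had 500.2 to 573. Cyp51 had 1372 normalized counts in WT replicate 5 at 10 months, where the other 4 mice had 1026 to 1106.

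The genotype effect differed between the ages by limma's test for 1 of the 7 genes and 4 of the 42 list genes, against 6.36% of all genes tested. For Lss the effect at 10 minus 7 months was 0.74 on the log2 scale (adjusted p = 0.0343) and for Lrp1 it was 0.65 (adjusted p = 0.0488). It was -0.42 for Ebp (adjusted p = 0.0349), -0.44 for Lipa (adjusted p = 0.0152) and -0.80 for Soat1 (adjusted p = 0.0043). Without 1 mouse the calls of Lss, Lrp1 and Ebp were lost in 9, 15 and 11 of 20 fits, and those of Lipa and Soat1 in 0. What lies behind these differences was not tested.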

How the results depend on the processing

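The counts of genes called depended on the tool and on single mice, whereas 0 of the 7 genes passed at either age under any alternative run. DESeq2 on recovered reads called 1158 genes at 7 months (684 by limma) and 1694 at 10 months (1045). Equal replicate numbers did not pair the mice, since the correlations of same-numbered mice lay between -0.146 and 0.113 over 9 pairs and 1 of 9 correlated best with its own number. The replicate block gave 414 calls at 7 months and 482 in the difference between the ages (920 without it). With the block the calls among the 42 list genes were 1 at 7 months, 3 at 10 months and 2 in the difference, and 0 of the 7 genes passed in the difference (Lss adjusted p = 0.0753). In the other 7 alternatives that kept all mice, the adjusted p of the Lss difference was 0.0122 to 0.0425. List genes called were 5 at 7 months in 1 fit of all 20 mice, and 3 at 10 months without a filter. Leaving out 1 mouse gave 280 to 860 calls at 7 months, with 280, 443 and 367 without WT replicates 1, 2 and 3. It gave 489 to 1232 calls at 10 months, with 489 to 667 without mThy1-α-syn replicate 1, 3 or 5 or WT replicate 1, 2, 3 or 5 (lowest without WT replicate 2), and 618 to 1097 in the difference. It gave 1 to 4, 2 to 5 and 2 to 5 calls among the list genes, and 0 to 1 among the 7 genes in the difference. Values near 0 changed sign. Fdft1 at 7 months was -0.00215 with DESeq2, -0.025 with voom weights, -0.072 with the block and -0.069 to 0.068 without 1 mouse. Hmgcs1 was -0.0073 at 7 months with the block, and its difference -0.032 to 0.078 without 1 mouse. Scap was -0.058 to 0.12 at 7 months without 1 mouse, and its difference was -0.00941 with voom weights, -0.0096 with the block and -0.039 to 0.14 without 1 mouse. Insig2 at 10 months was -0.047 to 0.026 without 1 mouse. The causes were not tested. Counting error was below the spread between mice for the 7 genes in every group except Insig1 in WT mice at 10 months (2.99% against 2.33%), and 4 to 6 mice per group set the precision.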
